A study of Mus musculus with 8 samples.

Results

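Glycolysis, lactate and pyruvate genes were examined in bulk RNA sequencing of mouse retina. The set held 32 gene names, chosen by name: the enzymes that turn glucose into pyruvate and lactate, the carriers that move glucose, lactate and pyruvate across membranes, and the kinases that restrain pyruvate oxidation. The names matched 33 of the 54532 genes in the deposited count table, because Aldoa is listed in 2 rows. All 33 passed the filter on low counts and were tested among 17004 genes, and the lowest count of any member in any library was 23. The study made 8 libraries: 4 retinas labelled sIVs, named in the series title as small vesicles of intracellular origin, and 4 control retinas labelled PBS, a salt solution. Replicates are numbered 1, 3, 4 and 5 in each group. The labels state the tissue, but no strain, genotype, age, dose, route, time or injury model for either group. The series title speaks of uptake, drug delivery and a protective action on the retina, so the comparison asks which transcripts differ between vesicle and control retinas. The labels do not say whether the libraries come from separate animals, so p-values measure the spread between these samples, which may be technical.

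The retina is known for aerobic glycolysis: photoreceptors take up much glucose and turn most of it into lactate even when oxygen is present. Glucose enters through facilitative transporters, is trapped by hexokinase, and is committed to breakdown at phosphofructokinase. Pyruvate is then either reduced to lactate by lactate dehydrogenase and exported by monocarboxylate transporters, or carried into mitochondria and oxidised by the pyruvate dehydrogenase complex.

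Library totals were 13915203 to 16009589 counts in the sIVs group and 13803958 to 16622259 in the PBS group. The tissue label was checked against cell markers: all 7 rod markers had counts in every library, and the 5 lens markers summed to at most 0.262 CPM in sIVs and 0.405 CPM in PBS libraries (CPM, read counts scaled to a common normalized library total). The library sIVs replicate 4 stood apart. Its FPKM values (read counts scaled by depth and by gene length) summed to 329833, against 242057 to 259160 in the other 7, which goes with more of its reads in short genes. Its 8 pigment epithelium markers summed to 426 CPM, against 10.8 to 54.9 CPM elsewhere. Rgr, Ttr, Rpe65, Rdh5 and Lrat were highest in this library, at 153, 150, 60.2, 41.4 and 14.1 CPM. Pmel, Tyrp1 and Best1 were not: their highest values, 4.21, 6.46 and 0.181 CPM, lay in other libraries. Summed erythrocyte markers, 5 genes, were 9.37 to 26.7 CPM in the sIVs retinas, highest in replicate 4, against 5.24 to 9.14 CPM in the PBS retinas. These sums parted only narrowly, in 1 of 12 marker lists. Hba-a1, Hbb-bs, Hbb-bt and Alas2 each overlapped between groups, and only Hba-a2 did not. Alas2 stood at 1.15, 0.36, 0.39 and 0.48 CPM in the sIVs retinas, against 1.13, 0.81, 0.81 and 1.20 CPM in the PBS retinas. Microglial markers, 6 genes, were 86.1 to 142 CPM in the sIVs retinas against 32.7 to 108 CPM in the PBS retinas. Red cells also use glycolysis, and the part of such cells in the results was not tested. Results of members that rest on this library are given with and without it.

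No member differed between sIVs and PBS retinas past the test. In edgeR's quasi-likelihood test with Benjamini-Hochberg adjustment over all genes, 0 of 33 members passed, as did 0 of 17004 genes (0%), and the lowest adjusted p among the members was 0.81. At an unadjusted p under 0.05 there was 1 member, Slc16a8, against 255 of all genes (1.5%). DESeq2 also called 0 genes and had 1 member at an unadjusted p under 0.05. In no member were the groups free of overlap, against 2.01% of all genes (1.08% with sIVs higher and 0.929% with sIVs lower). The log2 fold change, sIVs minus PBS, was positive in 19 and negative in 14 members, with a median of 0.11, against 51.3% positive and a median of 0.0093 over all genes tested. Without sIVs replicate 4 it was positive in 13 members, with a median of -0.015. The 255 genes at an unadjusted p under 0.05 became 763 without sIVs replicate 1, 958 without sIVs replicate 3, 136 without PBS replicate 3 and 169 without PBS replicate 5, with 0 genes called in each.

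The intervals bound how large a difference these libraries leave room for. In 30 of 33 members the 95% interval of the log2 fold change lay between -1 and 1, and in 12 it lay between -0.5 and 0.5. The 3 wider ones were Slc16a8 (0.18 to 3.99), Gapdh (-1.77 to 1.37) and the second Aldoa row (-1.09 to 0.51). The biological coefficient of variation, the relative spread between libraries beyond counting noise, had a median of 0.188 over the members and 0.217 over all genes tested.

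**Figure D1:**
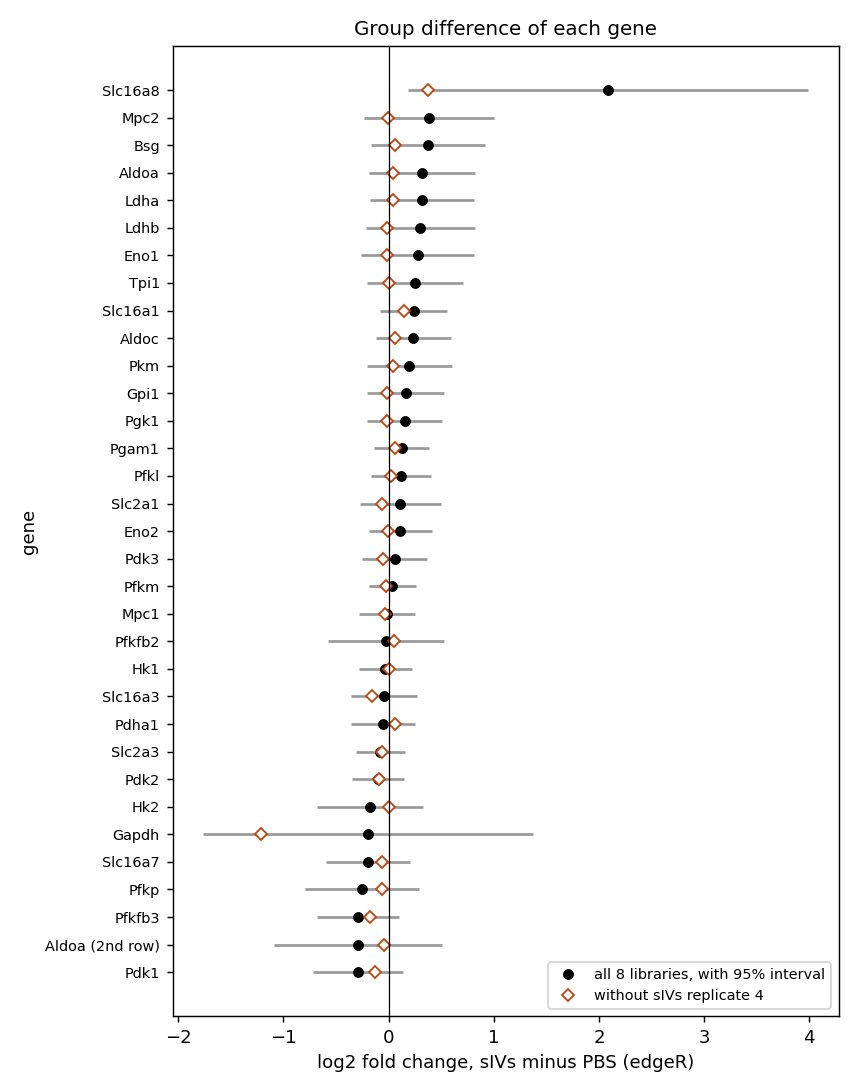
Log2 fold change of each member, sIVs minus PBS, from the edgeR fit; filled points use all 8 libraries with the 95% interval as a grey line, open diamonds leave out sIVs replicate 4. The Slc16a8 interval of 0.18 to 3.99 lies above 0 before adjustment, and its diamond stands at 0.38.

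Glucose transporters showed no group difference past the test. Slc2a1, the transporter GLUT1 of photoreceptors, Müller glia and the blood-retina barrier (chromosome 4, 119108711 to 119137983, mm10), stood at 162, 187, 289.5 and 224 CPM in the sIVs retinas, against 199.8, 183, 209 and 205 CPM in the PBS retinas, with replicates in the order 1, 3, 4 and 5, as for every gene. The lowest and the highest of the 8 values were both in the sIVs group, and the log2 fold change was 0.11 ± 0.17 (SE). Slc2a3, the neuronal transporter GLUT3, stood at 102, 125, 111 and 125 CPM in the sIVs retinas, against 121, 133, 115 and 119.8 CPM in the PBS retinas. Its groups overlapped, and its log2 fold change was -0.078 ± 0.10, with an interval of -0.31 to 0.15.

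Hexokinases trap glucose inside the cell. Hk1, the form found in most neurons (chromosome 10, 62268855 to 62379908), stood at 953, 913, 800.2 and 847 CPM in the sIVs retinas, against 860.4, 849, 942 and 943 CPM in the PBS retinas. Its highest value was 1.19 times its lowest, the second narrowest span of the members, and its log2 fold change was -0.033 ± 0.11. Hk2, a mitochondria-bound form enriched in photoreceptors, stood at 357, 307, 168 and 268 CPM in the sIVs retinas, against 320.1, 255, 377 and 289.9 CPM in the PBS retinas. The value in sIVs replicate 4 was the lowest of the 8, and the log2 fold change of Hk2 was -0.18 ± 0.22 with all libraries and -0.00076 without that one.

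Phosphofructokinase catalyses the committing step and has liver, muscle and platelet subunits. Pfkl, the liver subunit (chromosome 10, 77986947 to 78010083), stood at 449.7, 504, 603 and 463 CPM in the sIVs retinas, against 447, 440.0, 519 and 456 CPM in the PBS retinas. Pfkm, the muscle subunit, stood at 153, 161, 192 and 174 CPM in the sIVs retinas, against 165, 161, 168 and 169.8 CPM in the PBS retinas. Pfkp, the platelet subunit, stood at 864, 998, 428 and 668 CPM in the sIVs retinas, against 999.9, 934, 862 and 730.1 CPM in the PBS retinas. In sIVs replicate 4, Pfkl and Pfkm were at their highest and Pfkp at its lowest of the 8 libraries. The log2 fold changes were 0.12 ± 0.13, 0.036 ± 0.10 and -0.25 ± 0.24 (SE) for Pfkl, Pfkm and Pfkp. Pfkfb2 and Pfkfb3 encode enzymes that make fructose 2,6-bisphosphate, the allosteric activator of phosphofructokinase. Pfkfb2 stood at 326, 259, 212 and 214 CPM in the sIVs retinas, against 384, 214, 257 and 175 CPM in the PBS retinas, and the replicates numbered 1 were highest in both groups. Pfkfb3 stood at 39, 56.9, 33.9 and 51.7 CPM in the sIVs retinas, against 53.6, 64, 48.6 and 55.4 CPM in the PBS retinas, a log2 fold change of -0.29 ± 0.17 (SE; edgeR unadjusted p = 0.13, adjusted p = 0.81). Pfkfb3 had the third smallest unadjusted p of the members, and without sIVs replicate 4 its fold change was -0.17.

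Pkm and Aldoa, among the later glycolytic enzymes, had the highest mean CPM of the members. Pkm, pyruvate kinase, ranked 10 and Aldoa, aldolase A, ranked 11 among the 17004 genes by mean CPM. Aldoa (chromosome 7, 126795234 to 126800751) stood at 2519, 2291, 4474 and 2530.3 CPM in the sIVs retinas, against 2457, 2148, 2636 and 2225 CPM in the PBS retinas. Apart from sIVs replicate 4, the groups overlapped, and the log2 fold change was 0.32 ± 0.22 with and 0.046 without that library. Aldoc, the brain and retina form, stood at 483, 469, 729.8 and 502 CPM in the sIVs retinas, against 412, 469.7, 492 and 482 CPM in the PBS retinas. Eno1, the widespread enolase, stood at 1783, 1728, 3553 and 2100.2 CPM in the sIVs retinas, against 1604, 1935, 1965 and 2059 CPM in the PBS retinas. Eno2, the neuronal enolase, stood at 738, 736, 1010.3 and 786 CPM in the sIVs retinas, against 779, 755, 762 and 729 CPM in the PBS retinas. In each of these 4 genes sIVs replicate 4 held the highest value and the other 7 libraries lay within a factor of 1.31 of each other.

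Gpi1, Tpi1, Pgk1, Pgam1 and Pkm, which catalyse further steps between glucose 6-phosphate and pyruvate, had log2 fold changes of 0.16, 0.25, 0.15, 0.12 and 0.20, with standard errors of 0.12 to 0.20. Without sIVs replicate 4 these were -0.015, 0.0054, -0.017, 0.064 and 0.041. Pkm counts add up its isoforms, so the M1 and M2 forms cannot be told apart.

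Lactate dehydrogenase interconverts pyruvate and lactate. Ldha, the subunit favouring lactate formation (chromosome 7, 46841475 to 46855627), stood at 1124, 1094, 2121 and 1246 CPM in the sIVs retinas, against 1189, 1047, 1224 and 1035 CPM in the PBS retinas. Ldhb, the subunit favouring lactate use, stood at 149.6, 151, 310.0 and 172 CPM in the sIVs retinas, against 144, 150.0, 171 and 171 CPM in the PBS retinas. Both were highest in sIVs replicate 4, and their log2 fold changes of 0.31 ± 0.22 and 0.30 ± 0.23 (SE) stood at 0.037 and -0.015 without it. Within the pair, Ldha made up 77.4% ± 0.682 in sIVs and 77% ± 2.23 in PBS retinas of the FPKM of both subunits (SD, n = 4 each), from 74.2% to 79.6% over the 8 libraries. The upstream sequence of Ldha is shown because it is a well known target of hypoxia-inducible factor, whose binding site has the core ACGTG or GCGTG.
Ldha, first listed start, GRCm38.p6 chr7:46845554-46845803, plus strand: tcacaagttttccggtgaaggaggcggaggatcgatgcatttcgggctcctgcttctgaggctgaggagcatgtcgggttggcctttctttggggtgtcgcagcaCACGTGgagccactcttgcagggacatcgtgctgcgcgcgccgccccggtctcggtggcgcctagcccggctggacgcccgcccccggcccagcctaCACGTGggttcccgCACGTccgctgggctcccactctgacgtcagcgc
Ldha, second listed start, GRCm38.p6 chr7:46846832-46847081, plus strand: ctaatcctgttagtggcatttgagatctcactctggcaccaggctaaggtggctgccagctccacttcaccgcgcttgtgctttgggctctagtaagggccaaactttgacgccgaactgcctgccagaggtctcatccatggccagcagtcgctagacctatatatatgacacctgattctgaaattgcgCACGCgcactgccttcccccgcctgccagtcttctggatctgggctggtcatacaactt
Both run 5′ to 3′ over the 250 bases before a RefSeq start, and capitals mark ACGTG or GCGTG read on either strand (CACGT and CACGC as printed). In CACGTG the core is read on both strands, with overlap. The first window holds 3 stretches in capitals and the second holds 1. Of the 32 names, 29 had promoters in the RefSeq table. Either core occurred in 35 of their 46 windows (76.1%), against 38.6% of all 32851 windows of the same length. By gene, 25 of the 29 had either core in a window. The share by gene over all genes was not computed, and a gene with several windows has more chances of a match. Windows of the same gene can overlap, and the shares were not matched for base composition or tested. A match is only a string of letters, and binding was not measured here.

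Monocarboxylate transporters carry lactate and pyruvate. Slc16a1, the transporter MCT1 of photoreceptors and Müller glia (chromosome 3, 104638668 to 104658462), stood at 286, 247, 338 and 265 CPM in the sIVs retinas, against 289, 218, 241 and 213 CPM in the PBS retinas. It had the second smallest unadjusted p of the members (edgeR unadjusted p = 0.123, adjusted p = 0.81), a log2 fold change of 0.24 ± 0.14 (SE), and 0.14 without sIVs replicate 4. Slc16a3, the transporter MCT4 of strongly glycolytic cells, stood at 53.2, 60.6, 73.9 and 56.2 CPM in the sIVs retinas, against 67.4, 57.5, 73 and 54.2 CPM in the PBS retinas. Slc16a7, the high-affinity transporter MCT2, stood at 20.9, 16, 11.5 and 17.3 CPM in the sIVs retinas, against 18.3, 19.9, 17.9 and 19.3 CPM in the PBS retinas, with its lowest value in sIVs replicate 4. Bsg encodes basigin, the chaperone that brings MCT1, MCT3 and MCT4 to the membrane and, in photoreceptors, part of the complex with GLUT1 that responds to the rod-derived cone viability factor. It stood at 762, 784, 1627 and 941 CPM in the sIVs retinas, against 687, 803, 852 and 824 CPM in the PBS retinas. All libraries but sIVs replicate 4 lay between 687 and 941 CPM, and the log2 fold change of 0.38 ± 0.24 was 0.064 without that library.

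Slc16a8 encodes MCT3, a lactate transporter of pigment epithelium, which lies behind the photoreceptors and takes up the lactate they release (chromosome 15, 79251014 to 79254761). It stood at 4.44, 1.7, 35 and 4.33 CPM in the sIVs retinas, against 1.74, 2.89, 2.49 and 3.55 CPM in the PBS retinas. A single library, sIVs replicate 4, set the group mean, while sIVs replicate 3 and PBS replicate 1 were equally low. The log2 fold change was 2.09 ± 0.85 (SE; edgeR unadjusted p = 0.035, adjusted p = 0.81), and 0.38 (adjusted p = 1.0) without sIVs replicate 4. With limma-voom and sample quality weights it was 0.071. The 8 pigment epithelium markers summed to 38.2, 10.9, 426 and 54.9 CPM in the sIVs retinas, against 10.8, 41.5, 15.0 and 50.6 CPM in the PBS retinas. Both quantities were highest in sIVs replicate 4 and lowest in PBS replicate 1 and sIVs replicate 3. Of the 8 markers, only Best1 was at 0, in 2 libraries, and Pmel, Tyrp1 and Best1 were not highest in sIVs replicate 4. The part of carried-over pigment epithelium in the Slc16a8 value was not tested. In whole tissue, fewer cells of a type and less RNA per cell cannot be told apart.
The sequence before its single listed start is shown for comparison with Ldha, since the window holds neither core and so has no capitals.
Slc16a8, GRCm38.p6 chr15:79254749-79254998, minus strand: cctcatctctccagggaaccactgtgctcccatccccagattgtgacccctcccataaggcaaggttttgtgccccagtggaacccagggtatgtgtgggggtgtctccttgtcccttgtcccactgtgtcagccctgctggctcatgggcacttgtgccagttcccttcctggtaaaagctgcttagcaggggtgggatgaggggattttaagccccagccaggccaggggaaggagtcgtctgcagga
The absence of these letters from the window says nothing about the factor.

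**Figure D2:**
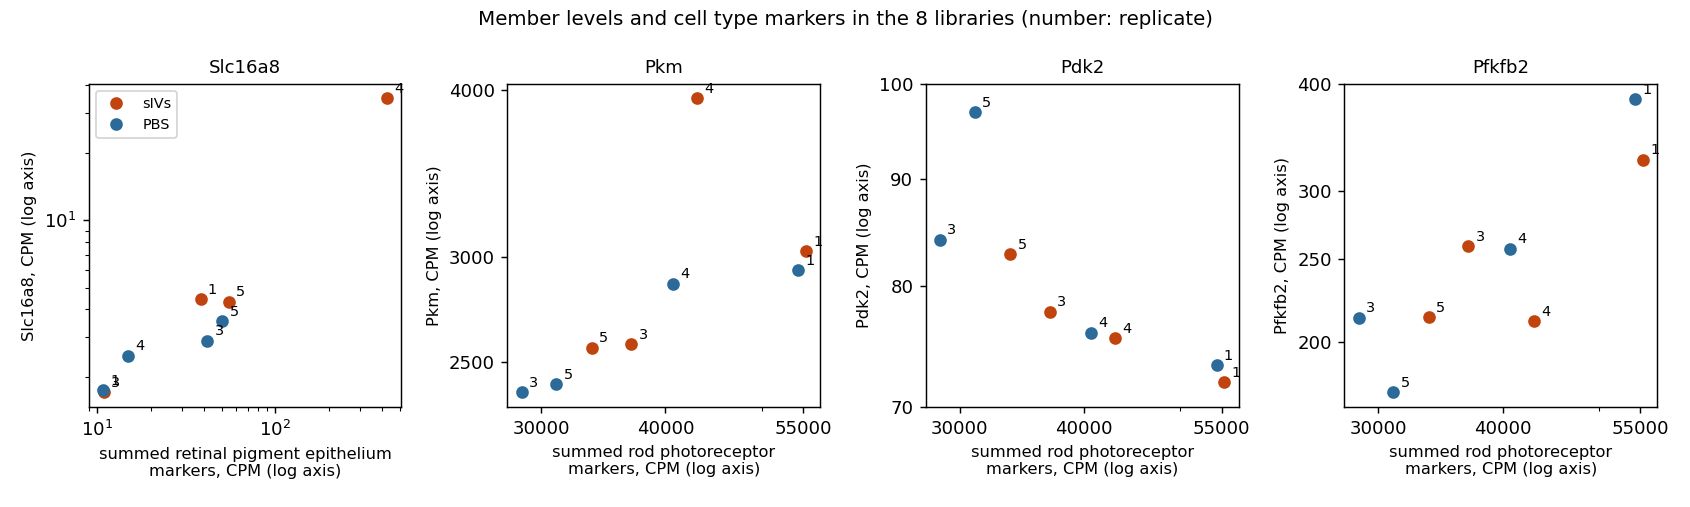
Level of Slc16a8 against the summed pigment epithelium markers, and of Pkm, Pdk2 and Pfkfb2 against the summed rod markers, in CPM on log axes; each point is 1 library, coloured by group and numbered by replicate. The sIVs replicate 4 point stands at 426 CPM of pigment epithelium markers and 35.0 CPM of Slc16a8, far from the other 7.

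Pyruvate enters mitochondria through a carrier of 2 subunits and is oxidised by pyruvate dehydrogenase, which the Pdk kinases switch off. Mpc1, a carrier subunit, stood at 11.8, 12.4, 12.6 and 12.4 CPM in the sIVs retinas, against 11.8, 13.1, 13 and 12 CPM in the PBS retinas, a span of 1.11 times and the narrowest of the members. Mpc2, the other subunit, stood at 42.3, 36.1, 93.1 and 46.3 CPM in the sIVs retinas, against 37.6, 39.8, 44.2 and 45.5 CPM in the PBS retinas. The sIVs replicate 4 value stood above the other 7, which lay at 36.1 to 46.3 CPM, and the log2 fold change of Mpc2 was 0.38 ± 0.27 with and -0.0083 without it. Pdha1, the catalytic subunit of the complex, had a log2 fold change of -0.054 ± 0.14. Pdk1, a kinase induced by hypoxia-inducible factor, stood at 34.8, 44, 22.4 and 38.5 CPM in the sIVs retinas, against 38.6, 46.6, 42.3 and 43.3 CPM in the PBS retinas. Pdk2, the kinase with the highest level per length here, stood at 71.9, 77.8, 75.5 and 82.8 CPM in the sIVs retinas, against 73.3, 84.2, 76 and 96.9 CPM in the PBS retinas. Pdk1 was lowest in sIVs replicate 4, whereas Pdk2 in that library lay inside the range of the others. The log2 fold changes of Pdk1, Pdk2 and Pdk3 were -0.29 ± 0.19, -0.10 ± 0.11 and 0.059 ± 0.14 (SE). Leaving out each library in turn, that of Pdk1 ranged from -0.42 to -0.13.

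**Figure D3:**
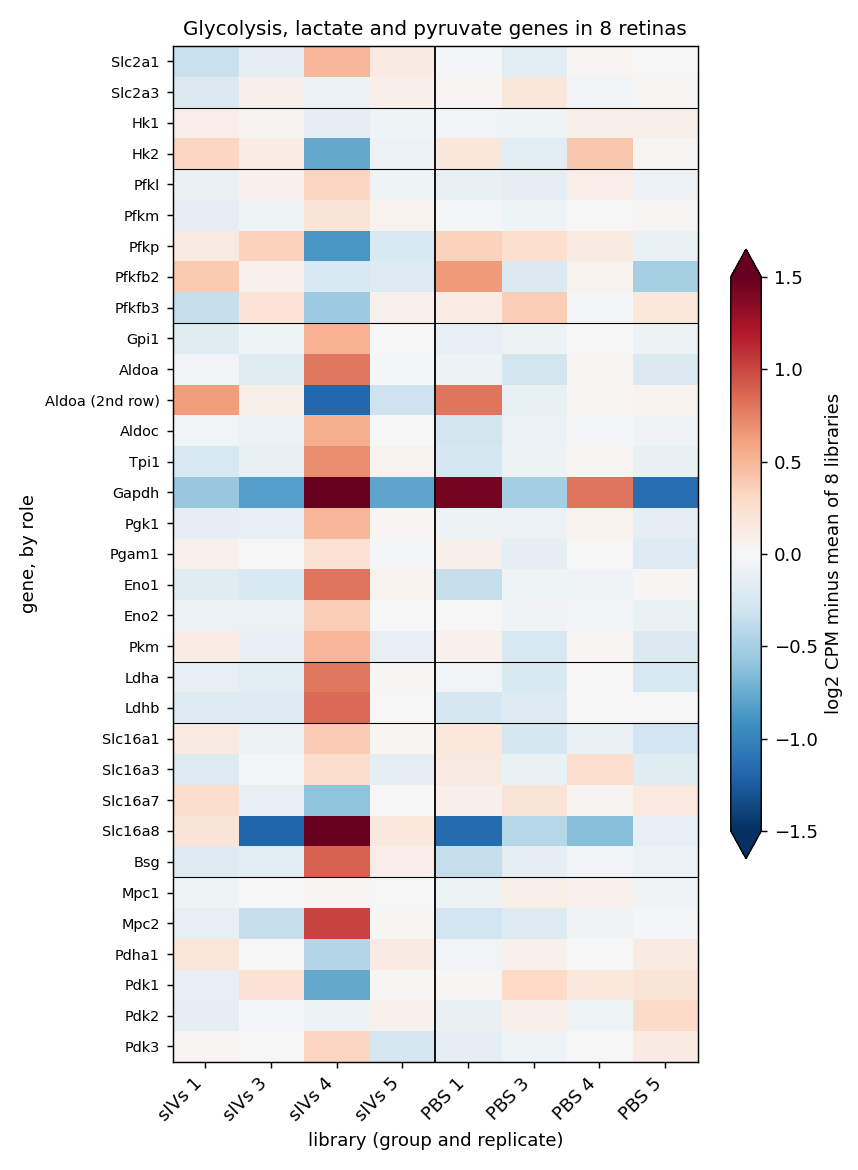
Log2 CPM of each member minus its mean over the 8 libraries, with sIVs libraries left of PBS libraries and genes ordered by role. The sIVs replicate 4 column is the highest of the 8 in 21 members and the lowest in 8.

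In sIVs replicate 4, 21 of 33 members were at their highest of the 8 libraries and 8 at their lowest. Over all genes tested that library was highest for 35.7% and lowest for 35.4%. The members took 2.46% of its counts, against 1.66% to 1.83% in the other 7. The 8 members at their lowest were Hk1, Hk2, Pfkp, Pfkfb3, Slc16a7, Pdha1, Pdk1 and the second Aldoa row, of which 6 have a listed length of at least 5969 bases. Across the 33 members the deviation of this library from the mean of the other 7 had a Spearman rho of -0.39 with listed length, and across all 17004 genes one of -0.45. In the other 7 libraries rho over the members was -0.16 to 0.36. By listed length, members such as Mpc2 (7344 bases, deviation 1.16) and the second Aldoa row (799 bases, deviation -1.33) ran against this order. Listed length counts all annotated exons. The longest coding transcript of Mpc2 has 1025 bases, which would place it among the short genes. Other libraries held wide departures too, such as 1.64 for Gapdh in PBS replicate 1 and -1.30 for Slc16a8 in sIVs replicate 3. The points behind each rho share 1 library and genes are not independent replicates.

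By length class, the median deviation in sIVs replicate 4 was 0.57 for the 12 members of 2 to 4 kb, against 0.30 for all genes of that length. It was 0.44 for the 7 members of 4 to 6 kb, against -0.082, and -0.21 for the 10 members over 6 kb, against -0.45. For the 4 members under 2 kb it was 0.62, against 0.63. Of the 33 members, 2 of 4, 8 of 12, 6 of 7 and 6 of 10 lay above the median of all genes of their class, from short to long. These classes use listed lengths. In the 4 to 6 kb class, the longest coding transcripts of Gapdh, Eno1, Pkm and Eno2 have 1420, 2027, 2432 and 2795 bases. Their deviations in sIVs replicate 4 were 1.84, 0.92, 0.57 and 0.42. Those transcripts of Slc16a3, Slc16a1 and Hk2 have 4335, 4426 and 5513 bases, with deviations of 0.30, 0.44 and -0.88. The classes were not redrawn with such lengths. With a length trend per library taken out, a setting chosen after seeing the data, the median log2 fold change of the members was 0.045, against 0.11 with TMM scaling alone, and 0 genes were called. What set this library apart was not tested.

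**Figure D4:**
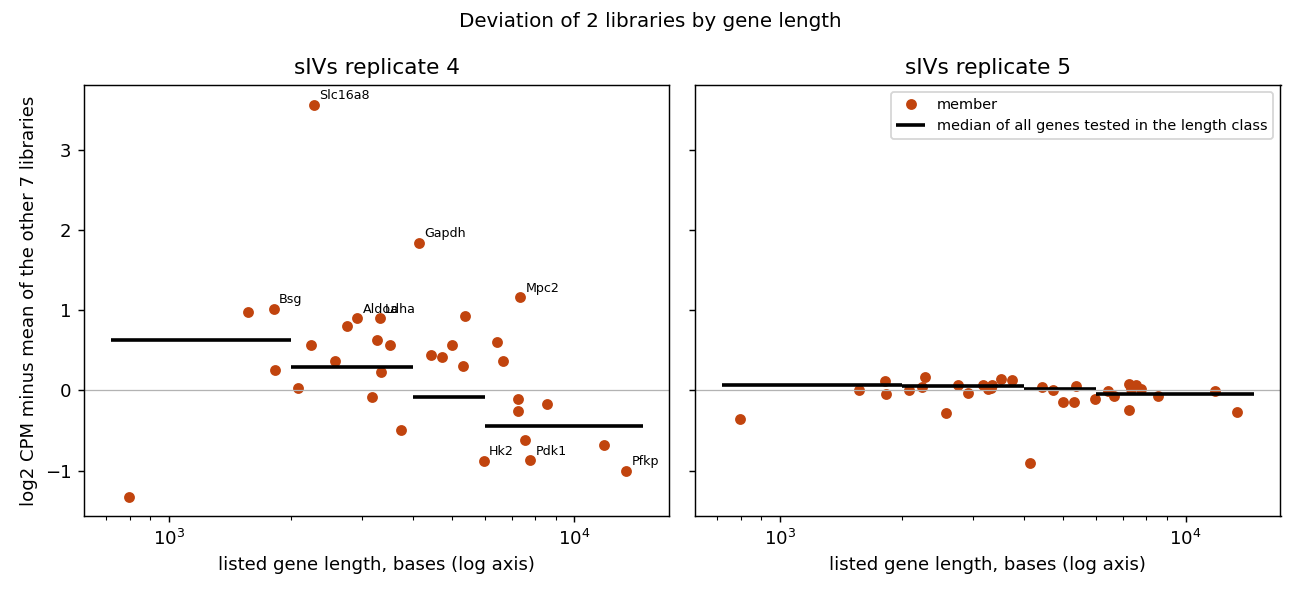
Deviation of each member in sIVs replicate 4 (left) and sIVs replicate 5 (right) from the mean of the other 7 libraries, in log2 CPM, against listed gene length on a log axis; black lines are medians of all tested genes in 4 length classes. On the left the lines step down from 0.63 to -0.45, and 21 members are above every other library.

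Isozyme balance within a library does not depend on scaling, so 12 ratios per length were compared by two-sided exact permutation tests over 70 arrangements, whose smallest possible p is 0.0286. No ratio passed (adjusted p over the 12 ratios at least 0.651). After that adjustment a single ratio could not pass in this design. The smallest p was that of MCT4 to MCT1: log2 Slc16a3/Slc16a1 was -2.49 ± 0.17 in sIVs and -2.20 ± 0.16 in PBS retinas (SD, n = 4 each), a difference of -0.29 (exact permutation p = 0.0571, adjusted p = 0.651). By library it was -2.69, -2.29, -2.46 and -2.50 in the sIVs retinas, against -2.37, -2.19, -1.99 and -2.24 in the PBS retinas. The groups overlapped through sIVs replicate 3 and PBS replicate 1. Leaving out any 1 library kept the difference between -0.35 and -0.22, and without sIVs replicate 4 it was -0.30.

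The Pfkp to Pfkl log2 ratio was -0.52 ± 0.69 in sIVs and -0.090 ± 0.24 in PBS retinas (SD, n = 4 each; exact permutation p = 0.343), with its lowest value in sIVs replicate 4, and the difference between groups was -0.42 with and -0.10 without that library. For Slc16a7/Slc16a1 the difference was -0.47 and -0.22, for Mpc2/Mpc1 0.30 and 0.017, and for Pdk2/Pdk1 0.23 and 0.044, with and without it. In these 4 pairs the listed lengths are 13401 and 6675, 11839 and 4426, 7344 and 2082, and 3163 and 7779 bases. The longest coding transcripts have 4145 and 3730, 10981 and 4426, 1025 and 961, and 2246 and 5185 bases. The other 7 ratios differed between groups by -0.32 to -0.028, less than the larger SD of either group.

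**Figure D5:**
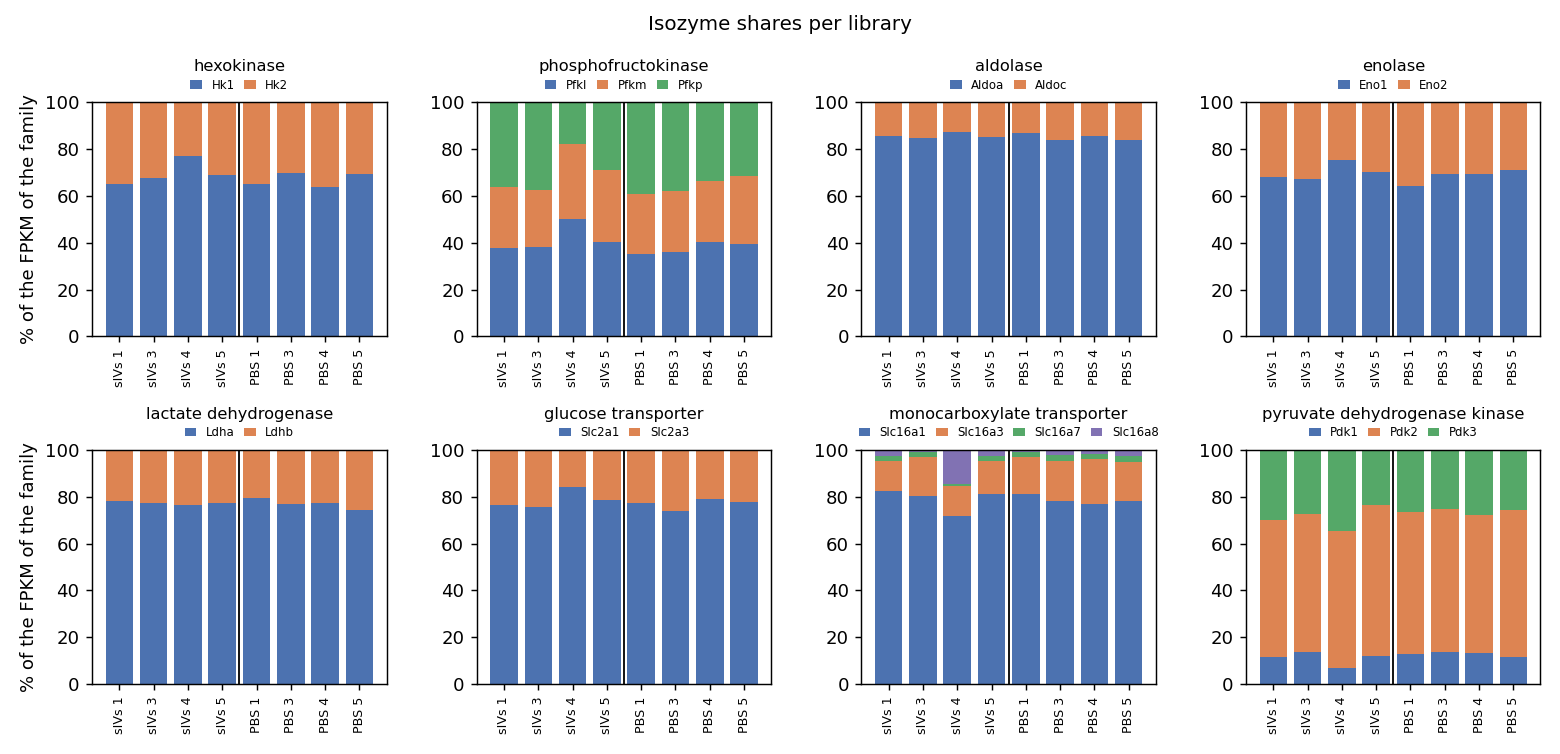
Share of each isozyme in the summed FPKM of its family, in %, for each library, with sIVs libraries left of PBS libraries. Slc16a8 takes 14.4% of the monocarboxylate transporter FPKM in sIVs replicate 4, and Pfkp takes 17.8% of the phosphofructokinase FPKM there.

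Per length, the retinas ordered the members over more than 2 orders of magnitude. Mean FPKM over the 8 libraries was 895 for Aldoa, 555 for Pkm, 491 for Bsg, 381 for Eno1, 373 for Ldha and 368 for Pgam1, and at the low end 3.01 for Slc16a8 and 1.46 for Slc16a7. Aldoa was above Pkm in 8 of 8 libraries, whereas Eno1, Ldha and Pgam1 could not be ordered: Eno1 was above Ldha in 4 of 8 and Ldha above Pgam1 in 2 of 8. Pgk1 (291 FPKM) and Eno2 (164 FPKM) were neighbours whose ranges did not overlap, as were Hk1 (102) and Pfkl (71.2), and Pdk3 (11.2) and Pfkfb3 (6.54). Hk1 made up 69.6% ± 5.14 in sIVs and 67.1% ± 3.12 in PBS retinas of the hexokinase FPKM, and Slc2a1 78.8% ± 3.9 in sIVs and 77.1% ± 2.15 in PBS retinas of that of the 2 glucose transporters (SD, n = 4 each). Of the phosphofructokinase FPKM, Pfkl made up 41.7% ± 5.8 in sIVs and 37.7% ± 2.6 in PBS retinas and Pfkp 30.2% ± 9.08 in sIVs and 35.5% ± 3.64 in PBS retinas. With the length of the longest coding transcript in place of all annotated exons, a setting chosen after seeing the data, that order turned round. Pfkl then made up 34.3% and Pfkp 50.3% over the 8 libraries. The shares of Hk1, Slc2a1 and Ldha moved too, to 79.8%, 67.5% and 83.7%. The order of levels among all members also depended on this choice: mean values per length became 1027 for Eno1, 690.0 for Ldha, 593 for Bsg and 386 for Pgam1.

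No member had a relation to rod markers across the libraries that passed the adjustment. The 7 rod markers summed to 55343, 36949, 42995 and 33719 CPM in the sIVs retinas, against 54367, 28667, 40660 and 31073 CPM in the PBS retinas. After these values were seen, the relation to each of the 33 members was computed over the 8 libraries, with permutation tests adjusted over all 17004 genes. Pdk2 was lower where rod markers were higher (Spearman rho = -0.98, permutation p = 0.0004; Pearson r = -0.82, permutation p = 0.0067; adjusted p = 0.138 and 0.164). Only 0.0823% of all genes had a rho as low. Pkm was higher where rod markers were higher (rho = 0.93, permutation p = 0.0022; r = 0.64, permutation p = 0.0822; adjusted p = 0.151 and 0.471), as were 0.806% of all genes to that degree. For Pfkfb2, r was 0.85 (permutation p = 0.00804, adjusted p = 0.174) and rho 0.67 (permutation p = 0.0831, adjusted p = 0.472), as far as 7.6% of all genes. Pgam1 had rho = 0.88 (permutation p = 0.00724, adjusted p = 0.179; r = 0.73, permutation p = 0.037), as far as 1.97% of all genes, and Slc16a1 had rho = 0.79 (permutation p = 0.0279, adjusted p = 0.282; r = 0.72, permutation p = 0.0442), as far as 4.66%. Slc2a3 had r = -0.73 (permutation p = 0.039, adjusted p = 0.344) and rho = -0.71 (permutation p = 0.0576, adjusted p = 0.405). These were the 6 members with an unadjusted p under 0.05 by either measure. The share of all genes under that p was not computed, so this count has no background beside it. A share of all genes was also not computed for Slc2a3.

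No relation passed the adjustment for these members, nor for any of the 17004 genes. Without sIVs replicate 1 and PBS replicate 1, the libraries farthest from the median of rod markers, r was -0.77 for Pdk2, 0.84 for Pkm, 0.51 for Pfkfb2, 0.87 for Pgam1, 0.76 for Slc16a1 and -0.84 for Slc2a3. Without sIVs replicate 4 it was -0.82 for Pdk2, 0.96 for Pkm, 0.93 for Pfkfb2, 0.89 for Pgam1, 0.87 for Slc16a1 and -0.73 for Slc2a3. Both measures share the library and its scaling factor. The permutation tests treated all libraries as exchangeable. Summed rod markers were highest in replicate 1 and next highest in replicate 4 in both groups, and the order of the remaining replicates differed. The labels do not state whether libraries of the same number share a source. If they do, the permutation p-values may be too small. Permutation that keeps the replicate numbers together was not run.

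Apart from Slc16a8, Gapdh had the widest span of the members. Gapdh, glyceraldehyde 3-phosphate dehydrogenase (chromosome 6, 125161715 to 125166467), stood at 33.5, 28, 153 and 28.7 CPM in the sIVs retinas, against 135, 34.9, 86.7 and 22.4 CPM in the PBS retinas. Values were high in sIVs replicate 4, PBS replicate 1 and PBS replicate 4, with a 6.79-fold span over the libraries, one of 6.00-fold without sIVs replicate 4, and a biological coefficient of variation of 0.66. The log2 fold change was -0.20 ± 0.70 (SE) with all libraries and -1.21 without sIVs replicate 4. Iffo1, which overlaps it on the other strand, had 148% as many counts. The mean Gapdh level of 15.4 FPKM over the 8 libraries was far below that of Pgk1, the next enzyme of the pathway, at 291 FPKM. Gapdh has many near-identical processed pseudogenes, and the handling of reads that match several places is not given in the sources used here, so its level is uncertain. The 2 listed copies whose names begin with Gapdh-ps held 7 counts in all, against 7656 for Gapdh. Copies under other names were not searched.

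Eno1 and Mpc1 share sequence with copies that took many reads. Eno1b, a retrotransposed enolase, held 97736 counts, or 27.9% of the sum of Eno1 and Eno1b, with 26.7% to 30.1% in each library. Mpc1-ps, a processed pseudogene of 330 bases, held 60.2% of the sum of Mpc1 and itself. Levels of Eno1 and Mpc1 are therefore uncertain, and copies named after Pgk1, Pgam1, Ldha, Aldoa and Tpi1 held at most 1.87% of the counts. The second Aldoa row (ENSMUSG00000114515, chromosome 7, 126800790 to 126809108, 799 bases) lies next to the first and overlaps Fam57b on the other strand, as the main Aldoa row also does. It stood at 25.4, 17.5, 7.27 and 13.2 CPM in the sIVs retinas, against 28.5, 15.2, 16.7 and 17 CPM in the PBS retinas, and was lowest in sIVs replicate 4, where the main row was highest. Whether the counting took strand into account is not stated, so reads of overlapping genes on opposite strands may be mixed. This also touches Pfkm with Senp1 (23.3% as many counts) and Pfkfb2 with Yod1 (17.9%). Fam57b held 107697 counts, 33.8% as many as the main Aldoa row. The second Aldoa row held 2073 counts, so its level is uncertain.

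Other genes of these pathways gave the same count of calls. Of 111 listed genes, 94 were tested and 0 passed, with 55 positive and 39 negative log2 fold changes and a median of 0.056. Medians were 0.057 for 18 other isozymes and side enzymes of glycolysis, 0.0021 for 11 genes of pyruvate oxidation and carboxylation, 0.030 for 20 transport genes and 0.085 for 9 genes of gluconeogenesis and glycogen. They were 0.17 for 8 pentose phosphate genes and 0.018 for 18 hypoxia factors and targets. For 10 genes of the malate-aspartate and glycerol phosphate shuttles the median was 0.081. None of these medians was computed without sIVs replicate 4. In that library the pentose phosphate gene Pgls was highest, at 99.6 CPM against 35.8 to 51.0 CPM elsewhere. H6pd, of the same list, was lowest there, at 6.22 CPM against 10.2 to 17.7 CPM. Only Pgam2, the muscle form of phosphoglycerate mutase, had an unadjusted p under 0.05 downward, against 0.459% of all genes, and no listed gene had one upward, against 1.04%. Pgam2 stood at 6.45, 7.10, 3.60 and 5.78 CPM in the sIVs retinas, against 9.15, 7.23, 7.53 and 8.79 CPM in the PBS retinas, without overlap (log2 fold change -0.51 ± 0.23 SE; edgeR unadjusted p = 0.0498, adjusted p = 0.81). Groups of sIVs below PBS without overlap made up 0.929% of all genes tested. The lowest Pgam2 value lay in sIVs replicate 4, and its fold change is not given here without that library.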

How the data were processed

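Poly(A)-selected, strand-marked libraries from mouse retina were read as pairs of 150 bp, per the labels' protocols. Raw counts were deposited for 54532 genes with listed gene lengths, alongside FPKM values that the authors made, per the file headers. The submitters' processing notes name the build mm10. The aligner, the counter and its strand setting were not given in the sources used here. Listed lengths equalled the union of exons in GENCODE M21 for 32 of 33 members.

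Groups came from sample titles, 4 libraries each. The members and lists were chosen with earlier results of these data known. Genes kept by filterByExpr (17004) were scaled with TMM and tested with edgeR 4.0.16 (R 4.3.3), quasi-likelihood, two-sided, Benjamini-Hochberg at 0.05. Standard errors are the absolute log2 fold change over the square root of F, and intervals are approximate. Ratios used counts plus 0.5 per length and exact permutation tests (scipy 1.17.1). Values in every library were given for the member of highest FPKM in each role, the isozymes in the ratios and the 3 members of smallest p, chosen by rule; other members were named after their values were seen. Alternatives used DESeq2 1.42.0, limma 3.58.1 and other scalings, filters and library sets. The edgeR test was checked on simulated data. Upstream sequences are from RefSeq (GRCm38.p6).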

Additional observations from a re-analysis of the deposited data

Results flagged for a closer look

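In groups of 4, a library was looked at again where its gap to the nearest other library took more of the range of its group than Dixon's 95% critical value. This was checked in 90 groups (33 members and 12 ratios, in each group of libraries) and met in 5, about the 1 in 20 that chance gives; 4 of the 5 were sIVs replicate 4. On the log2 scale that library stood apart from the other 3 sIVs libraries at 4474 CPM for Aldoa (2291 to 2530.3 CPM in the others), 729.8 CPM for Aldoc (469 to 502 CPM) and 153 CPM for Gapdh (28.0 to 33.5 CPM). Its log2 ratio of Slc16a7 to Slc16a1 was -6.30, against -5.36 to -5.19. In PBS replicate 4 the log2 ratio of Pfkm to Pfkl was -0.63, against -0.45 to -0.43 in the other 3 PBS libraries. Beside these values stand the pigment epithelium markers and the length trend of sIVs replicate 4, given with the results above; their part was not tested.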

How the results depend on the processing

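No gene was called under any of the 18 alternatives, and the median log2 fold change of the members lay between -0.019 and 0.13; at an unadjusted p under 0.05 there were 136 to 958 genes. No ratio passed in any setting, but with 0.0286 as the smallest exact p of 4 against 4, a single ratio could not pass after adjustment over 12, so this says nothing about stability. Directions of small differences turned, for causes not tested beyond the libraries removed. With limma-voom and sample quality weights the log2 fold changes that turned were -0.066 for Slc2a1, 0.014 for Hk1, 0.025 for Hk2, -0.029 for Pfkm, 0.21 for Pfkfb2, -0.013 for Gpi1, 0.086 for the second Aldoa row, -0.024 for Tpi1, -0.026 for Pgk1, -0.069 for Eno1, -0.0012 for Eno2, -0.026 for Ldhb, -0.047 for Mpc2, 0.016 for Pdha1 and -0.029 for Pdk3. Leaving out sIVs replicate 4 and PBS replicate 1 together gave -0.061 for Slc2a1, 0.016 for Hk2, -0.030 for Pfkm, 0.0022 for Pfkp, 0.31 for Pfkfb2, -0.031 for Gpi1, 0.20 for the second Aldoa row, -0.040 for Tpi1, -0.019 for Pgk1, -0.086 for Eno1, -0.056 for Ldhb, -0.053 for Mpc2, 0.038 for Pdha1 and -0.088 for Pdk3. The ratios that turned there were 0.036 for Hk2/Hk1, 0.10 for Eno2/Eno1, 0.0043 for Slc2a3/Slc2a1 and -0.0062 for Mpc2/Mpc1. With the length trend per library, chosen after seeing the data, the values were 0.021 for Slc2a3, 0.093 for Hk1, -0.034 for Pfkm, 0.060 for Pfkfb2, -0.014 for Pgk1, -0.041 for Pgam1 and -0.068 for Pdk3. Pfkfb2 stood at 0.0021 with limma on log2(FPKM + 1) and at 0.0031 on log2(FPKM + 0.1).

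Leaving out each library in turn, those that turned there or above ranged from -0.064 to 0.22 for Slc2a1, -0.12 to -0.025 for Slc2a3, -0.077 to 0.0076 for Hk1, -0.33 to -0.00076 for Hk2, -0.030 to 0.081 for Pfkm, -0.43 to -0.066 for Pfkp, -0.18 to 0.23 for Pfkfb2, -0.015 to 0.24 for Gpi1, -0.61 to -0.047 for the second Aldoa row, 0.0054 to 0.36 for Tpi1, -1.21 to 0.33 for Gapdh, -0.017 to 0.22 for Pgk1, 0.064 to 0.17 for Pgam1, -0.018 to 0.39 for Eno1, -0.0072 to 0.16 for Eno2, -0.015 to 0.41 for Ldhb, -0.15 to 0.029 for Slc16a3, -0.046 to 0.0085 for Mpc1, -0.0083 to 0.54 for Mpc2, -0.13 to 0.061 for Pdha1 and -0.050 to 0.14 for Pdk3. For ratios the ranges were -0.28 to -0.0035 for Hk2/Hk1, 0.017 to 0.46 for Mpc2/Mpc1, -0.13 to 0.015 for Aldoc/Aldoa, -0.19 to 0.0089 for Eno2/Eno1, -0.10 to 0.046 for Ldhb/Ldha and -0.26 to 0.0099 for Slc2a3/Slc2a1. Without sIVs replicate 4, 15 of these fold changes and ratio differences turned, and without any other library at most 3 did. The median log2 fold change of the members, not counted there, also turned. It was 0.11 with all libraries, -0.015 without sIVs replicate 4 and -0.013 with limma-voom and sample quality weights.

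The replicate numbers were not treated as pairs, because the labels give no shared source and 1 of the 4 correlations was under 0.1. Deviations of same-numbered libraries correlated at 0.60, 0.025, 0.23 and 0.51 for replicates 1, 3, 4 and 5, and sIVs replicates 1, 4 and 5 correlated best with their own number, a hint from the data, while sIVs replicate 3 correlated best with PBS replicate 1 (0.22). With the replicate block, 0 genes were called (588 at an unadjusted p under 0.05, against 255), and the member median was 0.080. The 1 member at an unadjusted p under 0.05 was then Pfkfb3, at -0.31 (edgeR unadjusted p = 0.031, adjusted p = 0.65). Slc16a8 stood at 1.20 (edgeR unadjusted p = 0.14) and Pfkfb2 at 0.013. No ratio could pass, since 4 pairs cannot give an exact p below 0.125.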
